A study of Homo sapiens with 12 samples.

Results

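This report describes 10 genes that cells commonly switch on when oxygen falls, in 2 human pancreatic cancer cell lines in which the enzyme GOT1 was depleted. The genes were SLC2A1, PDK1, CA9, VEGFA, EGLN3, NDRG1, BNIP3, ADM, ANKRD37 and P4HA1, taken by symbol from the deposited gene tables, and all 10 were found among 58721 annotated genes. Pa-Tu-8902 (Tu8902 in the sample names) and MIA PaCa-2 cells carried iDox-shGOT1. This is a hairpin, switched on by doxycycline (dox), that targets GOT1, the cytosolic aspartate aminotransferase. RNA-seq was performed on 3 untreated (mnsdox) libraries and 3 libraries of cells given dox for 5 days (plsdox) in each line, 12 in all. Both untreated and dox-treated cells carried the hairpin and no library came from cells with a control hairpin, so dox itself and the depletion of GOT1 cannot be told apart. No low-oxygen treatment is named for any library. In such bulk RNA, fewer cells that express a gene and less of its RNA per cell cannot be told apart. The libraries were assigned to a line by their sample titles. A gene listing published with the study holds, under Pa-Tu-8902 headings, per-library counts equal to those deposited under MIA titles, while its group means follow the titles, so every statement on a line rests on the titles. Each line consisted of stably transduced cells, and whether the 3 libraries of a group came from separate cultures was not stated, so p-values measure the spread between these libraries.

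Hypoxia-inducible factors (HIFs) are dimers of an oxygen-sensitive alpha subunit (HIF1A or EPAS1, also called HIF-2 alpha) and the stable partner ARNT. When oxygen is present, prolyl hydroxylases of the EGLN family mark the alpha subunit, VHL recognizes the mark, and the subunit is degraded. When oxygen is scarce, or the hydroxylases lack iron or 2-oxoglutarate, the dimer persists and binds short DNA elements with the core ACGTG or GCGTG. Its targets bring in glucose (SLC2A1), hold pyruvate back from the mitochondrion (PDK1), handle acid (CA9), act on vessels (VEGFA, ADM), modify collagen (P4HA1), remove mitochondria (BNIP3) and feed back on the pathway (EGLN3). NDRG1 is a stress-responsive protein whose transcript is also raised by iron loss, and ANKRD37 is an ankyrin-repeat protein. Pancreatic tumors are known for poor blood supply and low oxygen.

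The promoters are shown because HIFs act on their targets through these core elements. RefSeq start sites on GRCh38.p14 gave a window of 250 bases before to 50 after the start for 8 of the 10 genes, with 2 windows for PDK1. VEGFA and NDRG1 had no entry in the table used. ACGTG or GCGTG, searched on both strands, was present in at least 1 window of 7 of the 8 genes, against 48.4% of all 35116 promoter windows. ACGTG alone was present in 21.4% of all windows and GCGTG alone in 36.5%. In the sequences below, each written 5' to 3' on the strand of the gene, the capitals mark every match to either core on either strand, where CACGT and CACGC are the reverse complements.
ANKRD37: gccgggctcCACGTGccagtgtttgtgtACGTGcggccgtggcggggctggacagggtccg
BNIP3: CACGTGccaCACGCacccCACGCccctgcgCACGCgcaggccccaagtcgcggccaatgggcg
CA9: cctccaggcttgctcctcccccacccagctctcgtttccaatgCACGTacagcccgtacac
P4HA1: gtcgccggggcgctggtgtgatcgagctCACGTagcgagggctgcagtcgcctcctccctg
PDK1: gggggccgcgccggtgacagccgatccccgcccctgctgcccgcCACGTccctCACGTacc
ADM: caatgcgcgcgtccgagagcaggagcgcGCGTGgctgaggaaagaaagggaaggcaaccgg
The ANKRD37 stretch lies at chr4:185396670-185396730 on the plus strand, 171 to 111 bases before the start, and holds a palindromic CACGTG that counts as a match on each strand. The BNIP3 stretch lies at chr10:131981995-131982057 on the minus strand and carries 5 of the 6 matches of its window, 2 of them on opposite strands of the same CACGTG. The CA9 stretch at chr9:35673867-35673927 and the P4HA1 stretch at chr10:73096920-73096980, on the plus and minus strands, hold 1 match each. The PDK1 stretch at chr2:172556029-172556089 on the plus strand belongs to the second of its windows and ends at the base before the start, and the first window held no match. The ADM stretch lies at chr11:10304944-10305004 on the plus strand and holds the only GCGTG of its window. SLC2A1 had its single match 26 to 30 bases after the start, and the EGLN3 window had none, which says only that these letters are not in that window. A match is a string of letters and does not show that a HIF binds there.

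In the GENCODE release 44 annotation of GRCh38, the genes span chr1:42925353-42958893 (SLC2A1, minus strand), chr2:172555373-172608669 (PDK1, plus), chr9:35673928-35681159 (CA9, plus), chr6:43770184-43786487 (VEGFA, plus), chr14:33924227-34462774 (EGLN3, minus), chr8:133237175-133302022 (NDRG1, minus), chr10:131967684-131981967 (BNIP3, minus), chr11:10305073-10307397 (ADM, plus), chr4:185396021-185400628 (ANKRD37, plus) and chr10:73007217-73096974 (P4HA1, minus). Of the exonic bases of ANKRD37, 40.3% are shared with UFSP2 on the opposite strand, and of those of CA9, 35.7% are shared with ARHGEF39, also on the opposite strand. The libraries were strand-specific, but counting was done with default parameters and no strand setting is named, so the ANKRD37 counts may include reads of UFSP2, which had 8.62 to 12.4 TPM (transcript abundance scaled to the same total in every library, a level adjusted for length). BNIP3 has 39 annotated copies named after it, and 36 of them were at 0 TPM in every library. The copy BNIP3P4 had 2.72 to 4.89 TPM in the 6 Pa-Tu-8902 libraries and 0 in the 6 MIA PaCa-2 libraries, and how reads of such copies were divided by the counting step was not tested.

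GOT1, the target of the hairpin, was measured first. Its level was 78.3, 81.5 and 83.4 TPM in untreated Pa-Tu-8902 and 4.51, 3.29 and 3.68 TPM with dox. In MIA PaCa-2 it was 44.1, 38.9 and 42.7 TPM without dox and 1.68, 1.95 and 1.87 TPM with dox. GOT1 fell by 4.64 on the log2 scale (SE 0.0925, adjusted p = 1.51e-09) and by 4.76 (SE 0.111, adjusted p = 1.06e-09) in the respective lines, with every dox-treated library below every untreated one. Total counts were 26226537 to 43406137 per library. Among the checks of the cells, 6 of 6 epithelial marker genes were above 1 TPM in Pa-Tu-8902, with summed levels of 9220 to 10300 TPM untreated and 7890 to 8910 TPM with dox. Keratins made up most of this sum, and 2 of the 6 genes went the other way with dox. These were CDH1 (60.01 to 70.15 TPM untreated, 124 to 139 with dox) and EPCAM (543 to 553 and 645 to 698.5 TPM). In MIA PaCa-2, EPCAM and CDH1 were below 0.4 TPM in every library, and the summed level of the same list was 2720 to 2980 TPM untreated and 2830 to 3060 TPM with dox. KRT19 took 384 to 413 TPM of that sum untreated and 128 to 132 TPM with dox. For KRT8 and KRT18, every dox-treated MIA PaCa-2 library lay above every untreated one in TPM. The mesenchymal markers VIM, ZEB1 and CDH2 summed to 3540 to 4230 TPM in MIA PaCa-2 and to 3.98 to 11.8 TPM in Pa-Tu-8902. VIM made up nearly all of the MIA PaCa-2 sum, at 3531 to 4218 TPM. ZEB1 was also higher in MIA PaCa-2 (7.71 to 12.4 TPM, against 0.63 to 0.88 in Pa-Tu-8902). CDH2 went the other way, at 0 to 0.01 TPM in MIA PaCa-2 and 0.56 to 1.16 TPM in Pa-Tu-8902. Of 10 markers of immune, endothelial, stromal, islet and acinar cells, 7 to 9 stayed below 1 TPM in each group. Their sum was 8.88 to 13.2 TPM in untreated and 22.3 to 26 TPM in dox-treated Pa-Tu-8902, where COL1A1 took 3.43 to 6.31 TPM without and 17.5 to 21.2 TPM with dox, and its part in the results below was not tested. The untreated MIA PaCa-2 replicate 2 stood apart from its group (chi-square per degree of freedom 27.3 and 25.5 against the other replicates, and 6.40 between those), and it held the lowest TPM of its group for 5 of the 8 measured members. In dox-treated Pa-Tu-8902 the same measure was 20.6 between replicates 1 and 2, and 7.21 and 8.09 against replicate 3. Replicate 3 of untreated Pa-Tu-8902 had 8.93 and 10.8 against the others, with 2.25 between those.

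The 10 genes ranged from undetected to abundant. SLC2A1, which encodes the glucose transporter GLUT1, was the most abundant of them in each of the 4 groups. CA9, which encodes a cell-surface carbonic anhydrase, had a single count in 1 untreated MIA PaCa-2 library and 0 in the other 11. BNIP3, a receptor for the removal of mitochondria, had a single count in 1 dox-treated MIA PaCa-2 library and 0 in the other 11. With none seen, up to 3 counts could still be present, which is 0.0691 to 0.114 CPM (counts scaled to the library total) in these libraries, so both genes were at or under the floor in all groups and no fold change is given. These limits cover counting error only. The other 8 genes had at least 10 counts in 3 or more of the libraries compared and were tested in every comparison.

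In untreated Pa-Tu-8902, mean TPM was 411 ± 11.0 for SLC2A1, 24.7 ± 2.33 for VEGFA, 17.3 ± 2.15 for ADM and 11.0 ± 1.01 for P4HA1 (SD, n = 3). Below these came PDK1 at 3.06 ± 0.255 TPM, ANKRD37 at 2.68 ± 0.659, NDRG1 at 1.91 ± 0.470 and EGLN3 at 0.850 ± 0.171. The libraries of the first 4 did not overlap between neighbours in this order, whereas those of PDK1 and ANKRD37 overlapped, as did those of ANKRD37 and NDRG1. In untreated MIA PaCa-2 the order was SLC2A1 at 38.6 ± 5.51 TPM, VEGFA at 28.7 ± 3.94, P4HA1 at 18.4 ± 1.41, NDRG1 at 5.21 ± 0.146, PDK1 at 2.73 ± 0.199, ANKRD37 at 2.18 ± 0.533, ADM at 0.597 ± 0.309 and EGLN3 at 0.273 ± 0.1. There SLC2A1 and VEGFA were separated by less than 1 TPM (lowest SLC2A1 library 32.5, highest VEGFA library 32.2), and the PDK1 and ANKRD37 libraries overlapped, as did those of ADM and EGLN3. ADM stood below only SLC2A1 and VEGFA in untreated Pa-Tu-8902 and next to last among the 8 in untreated MIA PaCa-2.

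**Figure D1:**
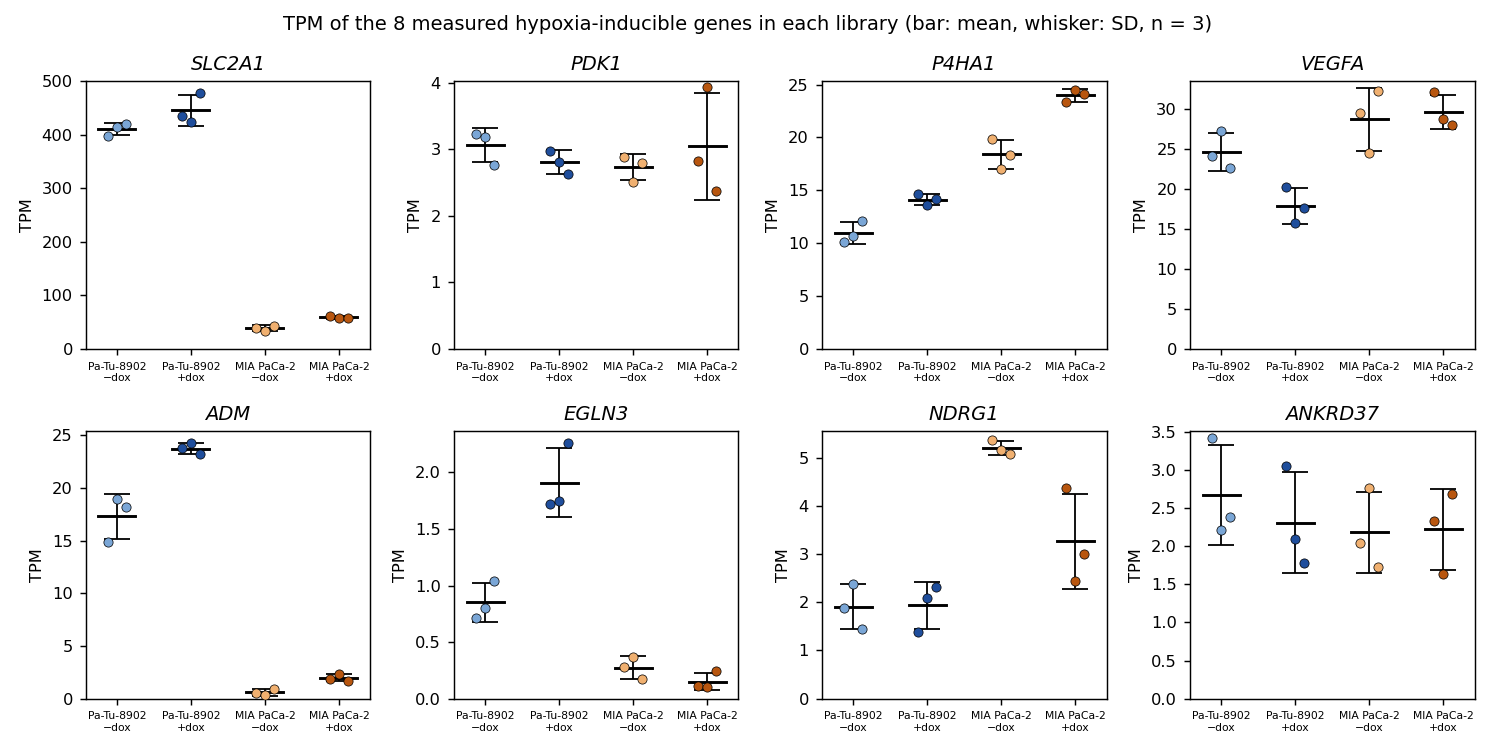
TPM of the 8 measured genes in each of the 12 libraries, with a panel for each gene, a linear axis from 0 and the 4 groups side by side. Points are libraries, bars are means and whiskers are SD (n = 3). SLC2A1, ADM and EGLN3 sat higher in Pa-Tu-8902, and NDRG1 and P4HA1 sat higher in MIA PaCa-2. Within each line the dox-treated points of SLC2A1, ADM and P4HA1 lay above all untreated ones.

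To determine how the genes responded to dox in Pa-Tu-8902, normalized counts of the 3 dox-treated and 3 untreated libraries were compared with edgeR. Throughout, a gene was called if its adjusted p was below 0.01 and its fold change at least 1.5. EGLN3 rose, and the other 7 tested members were not called. That is 1 called gene of 8 tested, against 16.3% of all 14949 genes tested in this line, with 9.22% called higher and 7.12% lower. The median log2 fold change of the 8 was 0.0979, against 0.00142 for all tested genes. Normalized counts of 4 of the 8 did not overlap between the groups, which was the case for 58.5% of all genes tested. With dox, 3 of these 4 were higher and 1 was lower, against 29% and 29.5% of all genes.

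EGLN3 encodes the prolyl hydroxylase PHD3, an inducible brake on HIF. Its counts were 37, 53 and 55 in the untreated Pa-Tu-8902 libraries and 101, 139 and 120 in the dox-treated ones, or 0.710, 0.800 and 1.04 TPM against 1.72, 1.75 and 2.26 TPM. All 3 dox-treated libraries lay above all 3 untreated ones. EGLN3 was 2.11-fold higher with dox (log2 1.08, SE 0.180, 95% confidence interval 0.68 to 1.48, adjusted p = 0.000535), although the call was lost when TPM values were tested with limma (adjusted p = 0.0113 to 0.0227).

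The genes that act on vessels had estimates of opposite sign in Pa-Tu-8902, and both stayed under the fold limit. VEGFA, the main growth factor for endothelial cells, had 24.1, 27.2 and 22.7 TPM untreated and 20.3, 15.8 and 17.7 TPM with dox, with no overlap. Its log2 fold change was -0.47 (SE 0.0733, 95% interval -0.64 to -0.31, adjusted p = 0.000324). ADM, the precursor of the vasodilator peptide adrenomedullin, had 14.9, 18.9 and 18.2 TPM untreated and 23.8, 24.2 and 23.2 TPM with dox. The ADM groups did not overlap either, and the log2 fold change was 0.39 (SE 0.0774, 95% interval 0.22 to 0.56, adjusted p = 0.00170). Thus the intervals of VEGFA and ADM lay on opposite sides of 0.

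The metabolic genes gave small estimates in this line. SLC2A1 had 399, 415 and 419.9 TPM untreated and 435, 424 and 478 TPM with dox. Its TPM groups did not overlap, whereas its normalized counts did. The SLC2A1 log2 fold change from normalized counts was 0.03 (SE 0.0668, 95% interval -0.12 to 0.18, adjusted p = 0.726). PDK1, the kinase that inhibits pyruvate dehydrogenase, had 2.63 to 3.23 TPM over the 6 libraries, with overlapping groups and a log2 fold change of 0.08 (95% interval -0.18 to 0.34, adjusted p = 0.584). Neither interval reached a 1.5-fold change. P4HA1, a subunit of the prolyl 4-hydroxylase that matures collagen, had 10.1, 10.7 and 12.1 TPM untreated and 14.6, 13.6 and 14.2 TPM with dox. These groups did not overlap, yet the log2 fold change of 0.25 (SE 0.0870, 95% interval 0.06 to 0.44) had an adjusted p of 0.0329 and was not called.

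NDRG1 and ANKRD37 were not called in Pa-Tu-8902. NDRG1 had 1.89, 2.39 and 1.45 TPM untreated and 1.39, 2.09 and 2.33 TPM with dox, and the groups overlapped (log2 fold change 0.11, 95% interval -0.23 to 0.46, adjusted p = 0.570). ANKRD37 had 52, 46 and 48 counts untreated and 47, 51 and 33 counts with dox, with a log2 fold change of -0.41 whose 95% interval ran from -0.90 to 0.08 (adjusted p = 0.151). This interval includes no change as well as a value 1.5-fold lower with dox.

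The same comparison was made in MIA PaCa-2. ADM rose, NDRG1 fell, and the other 6 tested members were not called. That is 2 called of 8 tested, against 12% of all 14589 genes tested in this line, 4.36% of which were called higher and 7.64% lower. The median log2 fold change of the 8 was -0.0649, against -0.00891 for all tested genes. Normalized counts of 5 of the 8 did not overlap between the groups, which was the case for 52.9% of all genes tested. With dox, 3 of these 5 were higher and 2 were lower, against 25.9% and 27% of all genes.

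ADM had 20, 12 and 21 counts in the untreated MIA PaCa-2 libraries and 42, 48 and 54 counts in the dox-treated ones. In TPM these were 0.510, 0.340 and 0.940 against 1.89, 2.36 and 1.71. Every dox-treated library lay above every untreated one, at levels still below those of untreated Pa-Tu-8902. ADM was 2.84-fold higher with dox (log2 1.51, SE 0.272, 95% interval 0.91 to 2.10, adjusted p = 0.00108), and the call was lost when TPM values were tested with limma (adjusted p = 0.0126 to 0.0318).

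NDRG1 had 328, 290 and 278 counts in untreated MIA PaCa-2 and 185, 130 and 185 counts with dox. In TPM these were 5.37, 5.16 and 5.09 against 4.37, 2.44 and 3, and all 3 dox-treated libraries lay below all 3 untreated ones. NDRG1 fell by 0.77 on the log2 scale (SE 0.127, 95% interval -1.05 to -0.49, adjusted p = 0.000583), or 1.71-fold. This call was lost when the effective gene lengths entered the fit (log2 fold change -0.75, adjusted p = 0.0144) and when TPM values were tested with limma (adjusted p = 0.0419 to 0.132).

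The remaining members of MIA PaCa-2 stayed under the fold limit or failed the test. SLC2A1 had 39.9, 32.5 and 43.3 TPM untreated and 61.1, 56.8 and 58.2 TPM with dox, with no overlap and a log2 fold change of 0.49 (SE 0.0677, 95% interval 0.34 to 0.64, adjusted p = 0.000177). P4HA1 had 19.8, 17.0 and 18.3 TPM untreated and 23.3, 24.5 and 24.1 TPM with dox, again with no overlap and a log2 fold change of 0.33 (SE 0.0679, 95% interval 0.18 to 0.47, adjusted p = 0.00276). Both genes were therefore higher in all 3 dox-treated libraries, with estimates from counts under 1.5-fold. The SLC2A1 interval, 1.27-fold to 1.56-fold, included that limit. With limma on TPM values and the filter on low values, SLC2A1 passed the fold limit (log2 0.60 to 0.61, adjusted p = 0.00526 to 0.00579).

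VEGFA had 29.5, 24.5 and 32.2 TPM in untreated MIA PaCa-2 and 32.1, 28.8 and 28.0 TPM with dox, and the log2 fold change was -0.11 (95% interval -0.27 to 0.04, adjusted p = 0.224). PDK1 had 2.89, 2.51 and 2.80 TPM untreated and 2.82, 3.94 and 2.38 TPM with dox. Its normalized counts did not overlap, although its TPM did, and the log2 fold change of -0.17 (95% interval -0.37 to 0.04) had an adjusted p of 0.182. EGLN3 had 11, 14 and 10 counts untreated and 6, 5 and 17 counts with dox, and its interval of -1.28 to 0.72 around a log2 fold change of -0.28 left its direction undetermined at this depth. ANKRD37 had 37, 55 and 31 counts untreated and 39, 25 and 54 counts with dox (log2 fold change -0.02, 95% interval -0.66 to 0.63, adjusted p = 0.966).

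**Figure D2:**
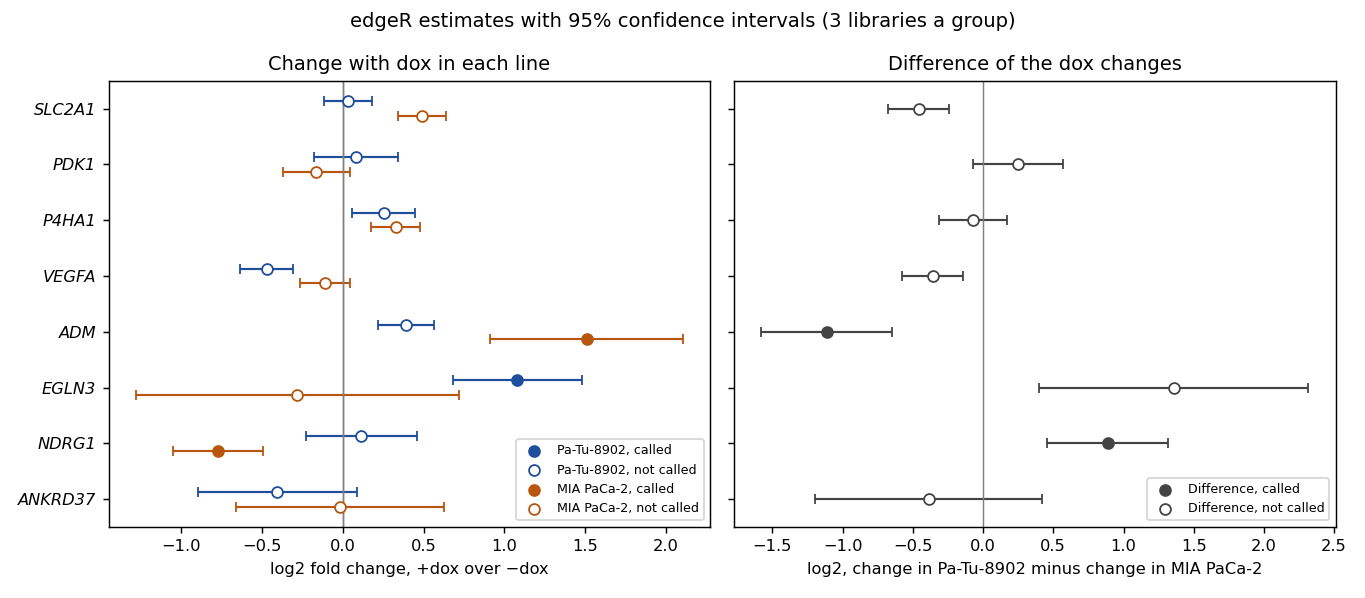
Left, log2 fold change with dox of the 8 tested genes in Pa-Tu-8902 (blue) and MIA PaCa-2 (orange); right, the difference of these changes, Pa-Tu-8902 minus MIA PaCa-2, from 1 fit of all 12 libraries. Points are edgeR estimates, whiskers are 95% confidence intervals, and filled points are called. EGLN3 was called in Pa-Tu-8902, ADM and NDRG1 in MIA PaCa-2, and of these ADM and NDRG1 were called in the difference.

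The difference between the lines was tested next, since a call in only 1 line does not show that the lines differed. The dox responses were compared in 1 model of the 12 libraries, through its interaction term. Of the 8 tested members, 2 were called different, NDRG1 with the higher change in Pa-Tu-8902 and ADM with the higher change in MIA PaCa-2, against 10.4% of all 16544 genes tested (6.56% with the higher and 3.86% with the lower change in Pa-Tu-8902). The log2 difference of ADM was -1.11 (SE 0.221, 95% interval -1.58 to -0.65, adjusted p = 0.00108). That of NDRG1 was 0.89 (SE 0.204, 95% interval 0.46 to 1.32, adjusted p = 0.00343). The ADM difference was not called with limma on TPM values (adjusted p = 0.0348 to 0.200). The NDRG1 difference was not called with limma on TPM values or with effective lengths (adjusted p = 0.126 to 0.246), nor without replicate 2 of untreated Pa-Tu-8902, replicate 3 of dox-treated Pa-Tu-8902, or replicate 2 or 3 of dox-treated MIA PaCa-2 (log2 0.82 to 0.86, adjusted p = 0.0102 to 0.0114).

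EGLN3, called in Pa-Tu-8902 alone, had a log2 difference of 1.36 with a wide error (SE 0.454, 95% interval 0.40 to 2.32, adjusted p = 0.0345), and it was not called different. Without replicate 3 of dox-treated MIA PaCa-2, the library with 17 EGLN3 counts, the log2 difference was 1.97 and it was called (adjusted p = 0.00556). SLC2A1 had a log2 difference of -0.46 (SE 0.103, adjusted p = 0.00299), under the fold limit, and VEGFA one of -0.36 (SE 0.103, adjusted p = 0.0153). P4HA1 had a log2 difference of -0.07, with a 95% interval of -0.31 to 0.17 that does not reach a 1.5-fold difference. For PDK1 (0.25, 95% interval -0.07 to 0.57) and ANKRD37 (-0.39, 95% interval -1.19 to 0.42) the adjusted p values were 0.251 and 0.506.

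The untreated lines were compared next, since their levels set the base from which the responses start. ADM, SLC2A1 and EGLN3 were higher in untreated Pa-Tu-8902, and NDRG1 and P4HA1 were higher in untreated MIA PaCa-2. These 5 of 8 tested members were called, 3 higher and 2 lower in Pa-Tu-8902, against 58.1% of all 15608 genes tested between the lines (28.9% higher and 29.3% lower), so a call between the lines was as common among all genes. The normalized counts of 6 of the 8 did not overlap, 3 in each direction, against 81.7% of all genes tested (40.4% higher and 41.2% lower in Pa-Tu-8902). The median log2 difference of the 8 was 0.186, against -0.0285 for all tested genes.

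ADM showed the widest gap of the members, with 398, 583 and 462 counts in untreated Pa-Tu-8902 and 20, 12 and 21 in untreated MIA PaCa-2. It was 27.3-fold higher in Pa-Tu-8902 (log2 4.77, SE 0.174, 95% interval 4.39 to 5.14, adjusted p = 2.06e-11). SLC2A1 had 15635, 20507 and 19526 counts against 2186, 1813 and 2104, and was 9.24-fold higher (log2 3.21, SE 0.0827, 95% interval 3.03 to 3.39, adjusted p = 6.64e-13). EGLN3 was 4.15-fold higher (log2 2.05, SE 0.296, adjusted p = 2.55e-05), on no more than 55 counts in any untreated library. This call was lost with limma on log2(TPM + 1) without a filter, where the log2 difference was 0.54.

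In the other direction, NDRG1 had 87, 96 and 94 counts in untreated Pa-Tu-8902 against 328, 290 and 278 in MIA PaCa-2, a 3.18-fold difference (log2 -1.67, SE 0.131, 95% interval -1.95 to -1.39, adjusted p = 5.85e-08). P4HA1 differed 1.68-fold (log2 -0.75, SE 0.0945, 95% interval -0.96 to -0.55, adjusted p = 6.98e-06). VEGFA was lower in all 3 Pa-Tu-8902 libraries but under the fold limit (log2 -0.44, SE 0.0738, adjusted p = 0.000103). PDK1 (log2 0.10, 95% interval -0.17 to 0.37, adjusted p = 0.471) and ANKRD37 (log2 0.27, 95% interval -0.33 to 0.87, adjusted p = 0.375) were not called. The PDK1 interval lay within a 1.5-fold change in either direction, and that of ANKRD37 did not.

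**Figure D3:**
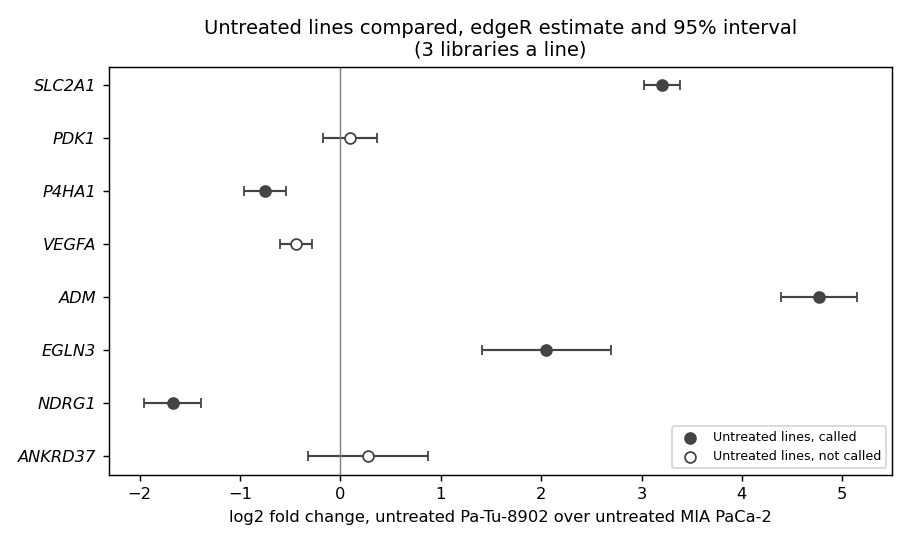
Log2 fold change of the 8 tested genes between the untreated lines, with values right of 0 higher in Pa-Tu-8902 and values left of 0 higher in MIA PaCa-2. Points are edgeR estimates from 3 libraries a line, whiskers are 95% confidence intervals, and filled points are called. ADM at 4.77 and SLC2A1 at 3.21 lay farthest to the right and NDRG1 at -1.67 farthest to the left.

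The genes that sense oxygen and build the HIF dimer were examined alongside their targets. Of 16 such genes, 14 were tested in Pa-Tu-8902, where 4 were called higher (HIF1A, EPAS1, HIF1AN and CITED2) and 2 lower (ARNT and EGLN1), and the median log2 fold change was 0.132. In MIA PaCa-2, 15 were tested and 2 were called higher (HIF1AN and CITED2), with none lower and a median of 0.0502. Of all genes tested, 16.3% and 12% were called in the 2 lines, and the medians were 0.00142 and -0.00891. HIF3A was under the count filter in both lines.

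Both alpha subunits rose in Pa-Tu-8902 while their partner fell. HIF1A had 54.5, 58.4 and 53.0 TPM untreated and 93.9, 80.6 and 91.7 TPM with dox (log2 fold change 0.62, SE 0.0487, adjusted p = 2.68e-06). EPAS1 had 63.4, 63.0 and 54.5 TPM untreated and 103.6, 103.9 and 94.4 TPM with dox (log2 fold change 0.59, SE 0.0482, adjusted p = 3.69e-06). This value is at the fold limit, and the EPAS1 call was lost in 3 of 18 alternative settings. Among these was the fit without replicate 1 of the untreated libraries (log2 0.55). ARNT had 10.9, 12.2 and 8.91 TPM untreated and 7.99, 6.28 and 6.35 TPM with dox, and it fell by 0.90 on the log2 scale (SE 0.0786, adjusted p = 5.61e-06). The HIF1A, EPAS1 and ARNT groups were each separate, and the ARNT call was lost with limma on TPM values (adjusted p = 0.0105 to 0.0404).

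In MIA PaCa-2, EPAS1 was close to undetected, at 0.170 to 0.510 TPM over the 6 libraries, against 54.5 to 103.9 TPM in Pa-Tu-8902. HIF1A was more abundant in untreated MIA PaCa-2 than in untreated Pa-Tu-8902 (92.9 to 145 TPM, log2 -1.15 for Pa-Tu-8902 over MIA PaCa-2, SE 0.0940, adjusted p = 8.70e-08), and its log2 fold change with dox was 0.05 (95% interval -0.14 to 0.24, adjusted p = 0.687). The log2 difference of the HIF1A responses was 0.57 (SE 0.107, adjusted p = 0.000675), under the fold limit. ARNT had a log2 fold change of -0.55 with dox in MIA PaCa-2 (SE 0.0927, adjusted p = 0.000714), just under the fold limit, and passed it without replicate 2 of the untreated libraries (log2 -0.66).

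Among the enzymes and adaptors of the pathway, EGLN1, the main prolyl hydroxylase in most cells, had 12.7 to 13 TPM in untreated Pa-Tu-8902 and 6.85 to 9.17 TPM with dox, and fell by 0.62 on the log2 scale (SE 0.0721, adjusted p = 4.41e-05). The call was lost in 3 of 18 alternative settings. Among these were the fits without replicate 3 of the untreated libraries (log2 -0.55) and without replicate 1 of the dox-treated ones (log2 -0.57). In MIA PaCa-2 its log2 fold change was -0.25 (adjusted p = 0.0107). Within the EGLN family, the untreated levels in Pa-Tu-8902 therefore stood at 74.5 to 78.8 TPM for EGLN2, 12.7 to 13 TPM for EGLN1 and 0.710 to 1.04 TPM for EGLN3, the member that rose. VHL had log2 fold changes of 0.34 (adjusted p = 0.00219) in Pa-Tu-8902 and 0.22 (adjusted p = 0.0201) in MIA PaCa-2, both under the fold limit.

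CITED2, which competes with HIF for a coactivator, rose in both lines. It had 11.7, 13.9 and 14.9 TPM untreated and 28.4, 34.5 and 29.9 TPM with dox in Pa-Tu-8902 (log2 1.07, SE 0.0796, adjusted p = 1.81e-06). In MIA PaCa-2 it had 3.83, 3.32 and 3.83 TPM untreated and 11.6, 11.7 and 12.3 TPM with dox (log2 1.54, SE 0.101, adjusted p = 7.72e-07). HIF1AN, the asparaginyl hydroxylase that blocks HIF activity, also rose in both lines, by 0.60 (adjusted p = 3.54e-06) and 0.72 (adjusted p = 1.19e-05) on the log2 scale. The HIF1AN calls were lost with effective lengths as offsets (log2 0.30 and 0.51) and with limma on TPM values.

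**Figure D4:**
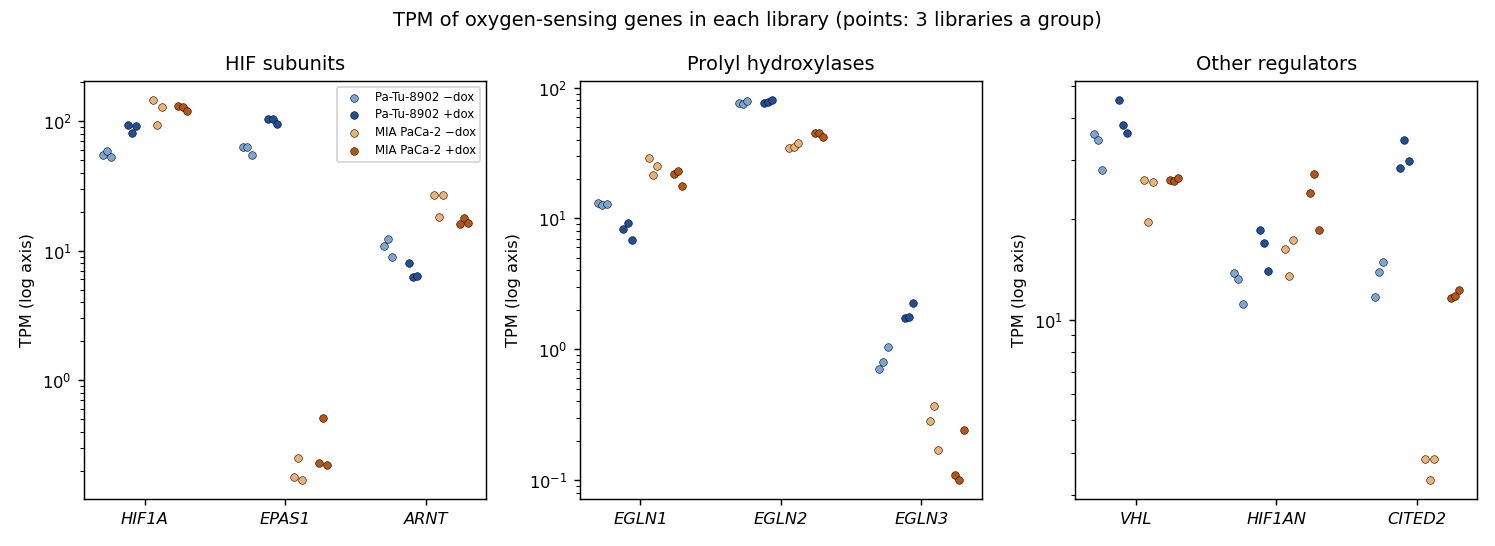
TPM of the HIF subunits, the prolyl hydroxylases and other regulators in each library, on a log axis, with 3 points for each of the 4 groups. EPAS1 was at 54.5 TPM or more in every Pa-Tu-8902 library and at 0.510 TPM or less in every MIA PaCa-2 library, and EGLN3 was the least abundant hydroxylase in all 12 libraries.

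Other known HIF targets, in lists of 18, 15 and 27 genes, were then set beside the 10 members. Of all genes tested, 9.22% were called higher and 7.12% lower in Pa-Tu-8902, and 4.36% and 7.64% in MIA PaCa-2. No glucose or glycogen gene was called higher among the 18 tested in Pa-Tu-8902 or the 17 tested in MIA PaCa-2. In Pa-Tu-8902, 3 were called lower, namely HK2 (hexokinase, log2 -0.78, adjusted p = 6.73e-07), PFKP (phosphofructokinase, log2 -0.68, adjusted p = 4.25e-06) and SLC16A3 (the lactate exporter MCT4, log2 -0.60, adjusted p = 5.79e-05), and the median of the list was -0.288. In MIA PaCa-2, 2 were called lower, namely ALDOC (an aldolase, log2 -1.32, adjusted p = 3.58e-05) and GBE1 (glycogen branching enzyme, log2 -0.59, adjusted p = 3.01e-05), with a median of -0.222. Beside these medians, the log2 fold change of SLC2A1 was 0.03 and 0.49. The PFKP and SLC16A3 calls were lost with limma on TPM values. That of SLC16A3 was also lost without replicate 3 of the untreated or replicate 1 of the dox-treated libraries (log2 -0.57 and -0.51), and GBE1, at the fold limit, was lost in 8 of 18 alternative settings.

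Of 15 secreted and matrix genes, 9 were tested in Pa-Tu-8902. EDN1 (endothelin, log2 0.59, adjusted p = 0.00301) and INHBA (an activin subunit, log2 0.97, adjusted p = 0.00934) were called higher, and ANGPTL4 (a lipoprotein lipase inhibitor, log2 -1.49, adjusted p = 8.31e-06) was called lower. The EDN1 and INHBA calls rested on 3.45 TPM or less and were lost in 8 of 18 and 9 of 16 alternative settings. In MIA PaCa-2, 7 were tested and LOXL2, a collagen cross-linking enzyme, was the only gene called, from 107.6 to 144.7 TPM untreated to 226 to 260.1 TPM with dox (log2 0.84, adjusted p = 2.41e-06). The medians were 0.157 and -0.0878.

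Of 27 intracellular targets, 26 were tested in Pa-Tu-8902, where BHLHE41 was called higher (log2 1.16, adjusted p = 2.63e-06) and RORA lower (log2 -1.36, adjusted p = 4.34e-05), both of them transcription factors of the circadian clock. These 2 called genes of 26 compare with 16.3% of all genes tested. In MIA PaCa-2, 24 were tested, of which BNIP3L and MXI1 were called higher and BHLHE40, BHLHE41 and MIR210HG lower. BNIP3L, the close relative of BNIP3 that also serves the removal of mitochondria, had 34.8 to 39.9 TPM untreated and 62.0 to 71.7 TPM with dox (log2 0.79, SE 0.0608, adjusted p = 2.41e-06), while BNIP3 itself was undetected. MXI1, an antagonist of MYC, had a log2 fold change of 0.77 (adjusted p = 0.000116). These 5 called genes of 24 compare with 12% of all genes tested. BHLHE41 fell by 1.13 on the log2 scale (adjusted p = 0.000116), opposite to Pa-Tu-8902. Its TPM groups overlapped in MIA PaCa-2 (5.03, 5.19 and 3.32 untreated, 5.13, 1.97 and 1.63 with dox), and the call was lost with effective lengths and with limma on TPM values (log2 -0.82 to -0.58). Its relative BHLHE40 fell by 0.77 (adjusted p = 4.61e-05). MIR210HG, the host transcript of a hypoxia-induced microRNA, fell by 1.62 on the log2 scale (adjusted p = 0.00922), a call lost in 7 of 12 alternative settings. Its level was 0.680 to 0.800 TPM untreated and 0.140 to 0.230 TPM with dox, the latter on 3 to 6 counts. The medians of the list were 0.0550 and -0.0820.

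**Figure D5:**
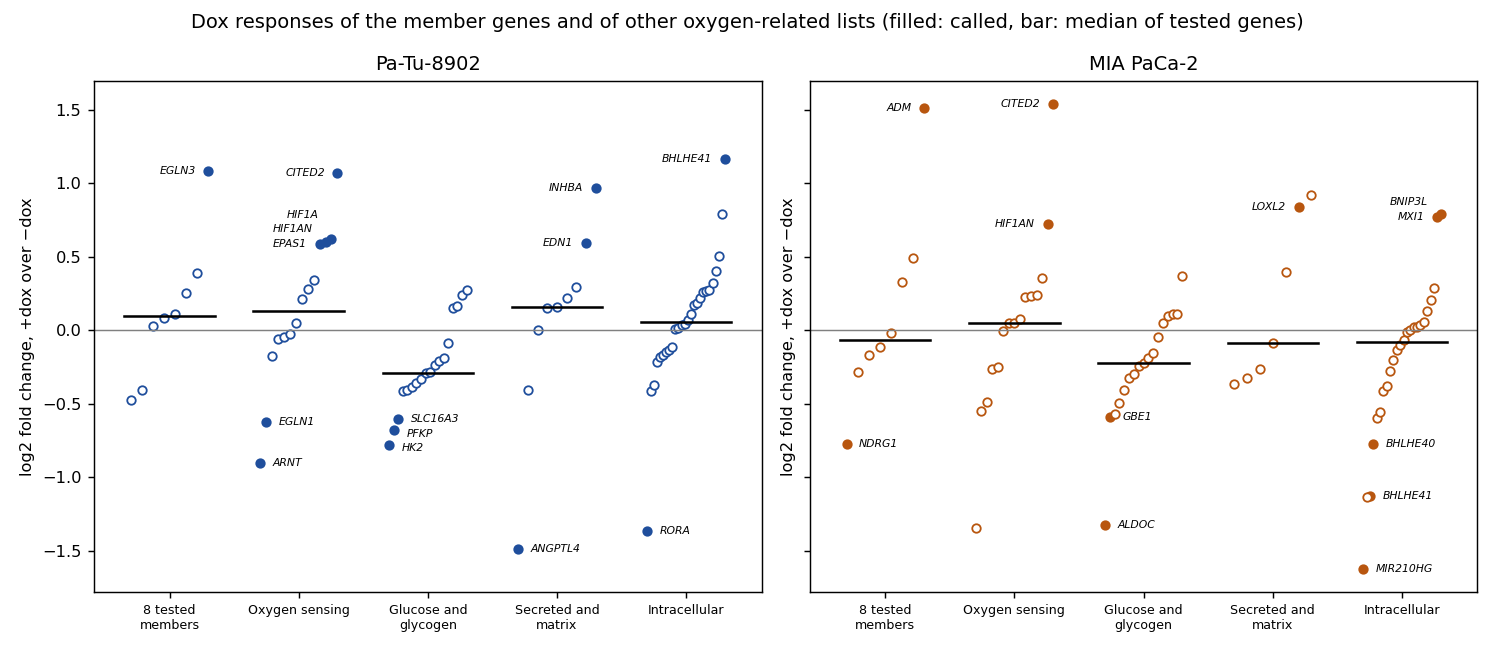
Log2 fold changes with dox of the 8 tested members, the oxygen-sensing genes and 3 lists of other HIF targets, in Pa-Tu-8902 (left) and MIA PaCa-2 (right). Each point is a gene, filled points with names are called, and bars are medians of the tested genes. In both lines the medians lay between -0.288 and 0.157, with called genes on both sides of 0.

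The deposited transcript estimates were examined for the members, as shares of each gene's summed TPM. Of SLC2A1, transcripts annotated as coding took 36% to 42.8% over the 12 libraries. The intron-retaining SLC2A1-202 took a mean of 39.8% in untreated Pa-Tu-8902 and 27.9% in untreated MIA PaCa-2, with ranges of 38.9% to 40.8% and 24.3% to 31.3%. In P4HA1, the transcript P4HA1-202 took 30.0% to 54.3% in untreated and 52.3% to 61% in dox-treated Pa-Tu-8902. Its MIA PaCa-2 shares were 29.1% to 44.1% without and 43.1% to 50.3% with dox, so the groups of this transcript overlapped in each line. P4HA1-203 took 49.8% to 58.6% without and 37.4% to 48.4% with dox in MIA PaCa-2, with no overlap. Its Pa-Tu-8902 shares, 38.2% to 59.3% without and 25.5% to 40% with dox, overlapped. VEGFA was spread over VEGFA-206 (35.2% to 51.8% in untreated libraries) and VEGFA-205 (18.1% to 38.7%). VEGFA-205 took 18.1% to 27.2% in untreated Pa-Tu-8902 and 35.2% to 38.7% in untreated MIA PaCa-2, with no overlap. With dox its share was 27.1% to 30.2% in MIA PaCa-2, below all untreated libraries of that line. In dox-treated Pa-Tu-8902 it was 21% to 30.5%, which overlapped the untreated range. All 8 ADM transcripts are annotated as coding, so a coding share of 100% was fixed by the annotation and is not a measurement. These shares are model estimates from short reads and are given as a description.

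Finally, the genes whose log2 CPM most resembled the 3 members with the smallest p for the difference of the dox responses were looked up among 16544 genes. They were ranked by Pearson's r over all 12 libraries, which fall into 2 clusters by line, so r is given here within each line, over 6 libraries that share their dox contrast. By that ranking ADM was nearest to ATP2C1, SPECC1 and ETS1, with r of 0.833 to 0.950 among the Pa-Tu-8902 libraries and 0.970 to 0.985 among those of MIA PaCa-2. SLC2A1 ranked nearest to FBLIM1, KRT7 and KCTD14, with r of 0.684 to 0.707 and 0.921 to 0.984 in the same order. The r of 0.984 was that of KRT7, which had only 4 to 18 counts in the MIA PaCa-2 libraries. NDRG1 ranked nearest to DLK1, PLOD1 and HIST1H2BO, with r of 0.965 to 0.992 in MIA PaCa-2 but only -0.0771 to 0.598 in Pa-Tu-8902. No ranking was made within a line, so for none of the 3 members are these genes shown to be the nearest in either line.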

How the data were processed

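The 10 members and all gene lists were chosen with earlier results of these data known. Per the study's methods and the labels, poly(A) RNA was sequenced as 150-base pairs. The authors trimmed reads with Trimmomatic 0.39, aligned them with STAR 2.5.2a called by RSEM 1.3.1 on GRCh38, and deposited expected counts and TPM per gene and TPM per transcript, neither filtered nor pooled; 5.34% of the expected counts were not whole and were rounded here. The GENCODE positions used here come from release 44.

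Counts were scaled by TMM factors and compared by the quasi-likelihood test of edgeR 4.0.16 (R 4.3.3), per line, between untreated lines, and by interaction over all 12 libraries. Genes needed at least 10 counts in at least 3 libraries. P-values were Benjamini-Hochberg adjusted over all tested genes, and adjusted p below 0.01 with a fold change of at least 1.5 was called. Standard errors are the log2 fold change over the square root of F. Named genes were the members, GOT1, the HIF subunits with VHL and EGLN1, up to 4 called genes per list, direction and line, and the nearest 3 genes of 3 members. The steps were tested on simulated data. Alternatives were DESeq2 1.42.0, its size factors, other filters, effective lengths, limma 3.58.1 on log2(TPM + 1) or log2(TPM + 0.1), a replicate block, other thresholds and leaving out each library. A single gene of the lists is not reported here.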

Additional observations from a re-analysis of the deposited data

Results flagged for a closer look

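The dox response differed between the lines, by the interaction contrast of edgeR over all 12 libraries, for 2 of the 8 tested hypoxia-inducible genes and for 10 other genes of the lists, of which the 8 described in the report are given here. In the oxygen-sensing, glucose and glycogen, secreted and matrix, and intracellular lists, 15, 18, 10 and 27 genes were tested. Of all 16544 genes tested, 10.4% were called different. All differences are given as the log2 fold change in Pa-Tu-8902 minus that in MIA PaCa-2, with adjusted p. ADM had a difference of -1.11 (adjusted p = 0.00108) and NDRG1 one of 0.89 (adjusted p = 0.00343).

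Among the other HIF targets, BHLHE41 differed by 2.29 (adjusted p = 6.91e-08), where the log2 fold change was 1.16 in Pa-Tu-8902 and was -1.13 in MIA PaCa-2, and the pairs below follow this order. BNIP3L differed by -0.77 (adjusted p = 3.15e-06), with 0.01 and 0.79. HK2 differed by -0.88 (adjusted p = 7.58e-06), with -0.78 and 0.10. BHLHE40 differed by 0.82 (adjusted p = 6.05e-05), with 0.04 and -0.77. ALDOC differed by 1.09 (adjusted p = 0.000157), with -0.24 and -1.32. SLC16A3 differed by -0.65 (adjusted p = 0.000173), with -0.60 and 0.05. ANGPTL4 differed by -1.16 (adjusted p = 0.000731), with -1.49 and -0.33. MIR210HG differed by 1.84 (adjusted p = 0.00890), with 0.22 and -1.62, and this call was lost in 16 of 20 alternative settings (log2 0.55 to 2.09). The BHLHE41 difference was not called in 4 of 23 alternative settings, namely with effective lengths and with limma on TPM values (adjusted p = 0.0112 to 0.0602).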

How the results depend on the processing

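No alternative moved the 5 members or the 42 list genes called between the untreated lines by over 1.5 times. With dox in Pa-Tu-8902, the 1 called member became 0 with limma on log2(TPM + 1), on log2(TPM + 0.1) and without a filter, and 3 without the fold limit; the 14 called list genes became 8, 8, 6 and 27. Among MIA PaCa-2 results, the 2 called members became 1 with effective lengths, 1, 1 and 0 with limma, and 4 without the fold limit; the 10 called list genes became 6, 6, 2 and 20. For the difference of the dox responses, the 2 called members became 1 with effective lengths and 0, 0 and 1 with limma, where the 1 is EGLN3, and the 10 list genes became 16 without the fold limit. Leaving out a library gave 1 for Pa-Tu-8902, 2 for MIA PaCa-2 and 1 to 2 for the difference. The cause was not tested.

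Replicates sharing a number did not deviate together (correlations -0.121 to 0.0987). Whether libraries of the same number were grown or prepared together was not stated, and these correlations cannot exclude it. The replicate block kept 1, 2, 2 and 5 called members, with EGLN3 at 1.09 in Pa-Tu-8902 and ADM at 1.51 in MIA PaCa-2, and NDRG1 at 0.89 for the difference. It took MIR210HG from the calls in MIA PaCa-2 and in the difference (adjusted p = 0.0176 and 0.0238), and ANKRD37 in MIA PaCa-2 became 0.00067.

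Of 1588 single-gene values under alternatives, 1420 kept direction and side of the threshold, 112 lost and 15 gained a call, and 41 changed sign, all in uncalled genes. With effective lengths, the log2 values of changed sign in Pa-Tu-8902 were -0.20 for PDK1, -0.038 for NDRG1, -0.16 for BNIP3L and -0.063 for MIR210HG; with MIA PaCa-2 cells they were 0.072 for PDK1 and -0.0040 for HIF1A, and for the difference -0.27 for PDK1. With limma at pseudocounts 1 and 0.1, in that order, they were -0.093 and -0.12 for PDK1 and -0.086 and -0.087 for BNIP3L in Pa-Tu-8902. The MIA PaCa-2 values were 0.099 and 0.12 for PDK1, 0.050 and 0.052 for VEGFA and 0.017 and 0.023 for ANKRD37, and for the difference -0.19 and -0.24 for PDK1 and, at pseudocount 1, -0.18 for GOT1. Without a filter the values at pseudocount 1 were the same, and MIR210HG in Pa-Tu-8902 was -0.0061.

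Leaving out a library gave ranges across 0 of -0.012 to 0.10 for SLC2A1, -0.021 to 0.18 for PDK1, -0.18 to 1.24 for LOXL2, -0.022 to 0.073 for BNIP3L and -0.014 to 0.0995 for BHLHE40 in Pa-Tu-8902. The MIA PaCa-2 ranges were -0.19 to 0.29 for ANKRD37, -0.049 to 0.15 for HIF1A and -0.22 to 0.37 for EPAS1, and for the difference -0.12 to 0.041 for P4HA1. Depth limits EGLN3 and ANKRD37, which had at most 139 and 55 counts, and CA9 and BNIP3, which were at the floor.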
